A study of Caenorhabditis elegans with 6 samples.

Results

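The spe and fer genes of Caenorhabditis elegans were named from mutants whose sperm fail, and they are described here together with a few partner genes of sperm maturation. Every probe set whose platform symbol is spe or fer followed by a number was taken, and to these were added gsp-3, gsp-4, trp-3, snf-10, swm-1 and try-5. The rule found 38 probe sets of 38 genes among the 26192 probe sets that carry a gene on the array, and the rule uses symbols alone, though it was written with earlier results of these data known. The gene trp-3 is listed under its other name, spe-41.

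The arrays held total RNA of whole wild-type N2 worms, labelled as L4 hermaphrodites, with 3 control and 3 exposed arrays. L1 larvae synchronised by bleaching grew for 48 h on plates with E. coli OP50 until L4, the last larval stage, and then spent 24 h at 20 °C in 50% M9 buffer. The control group had the buffer alone, and the exposed group had 500 µg/mL BSA-SPION in it, which are superparamagnetic iron oxide nanoparticles that carry bovine serum albumin as a single layer. Worms given albumin alone or bare particles were not analysed here, so iron oxide, albumin and particle load cannot be told apart. The labels do not say whether replicates came from separate cultures, so the p-values cover the scatter among these 6 arrays alone, and that scatter could be technical.

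A hermaphrodite worm makes its sperm once, around the L4 stage, and then switches its germline to oocytes. Sperm genes are transcribed in spermatocytes, where the major sperm protein (MSP) is packed into fibrous bodies beside membranous organelles. Later steps, namely activation of the round spermatid into a crawling sperm, fertilization, and delivery of paternal factors to the egg, run with little new transcription. The genes are grouped below by these steps. In whole-worm RNA, fewer cells of a type and less RNA per cell cannot be told apart.

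The deposited values are log2 expression values from RMA, a background correction, normalization and summary of the probes of each probe set. Control 3 and exposed 3 stood apart from the other 4 arrays on the second principal component over all probe sets (23.4% of the variance), so results are also given without these arrays where they matter. Array medians lay at 3.97 to 3.98 in controls and at 3.70 to 3.89 in exposed arrays. The control mean of 30 of the 38 genes lay below the median of all probe sets, and 10 of the 38 were dim, with a 6-array mean among the lowest 25% of all probe sets (under 2.66). RMA compresses differences at this end of the scale. None of these dim genes was called, nor was any of the 6548 dim probe sets of the array.

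Exposed worms had higher levels of 3 of the 38 genes, the fibrous body gene spe-18 (3.14-fold), spe-58 (2.39-fold) and the sperm phosphatase gene gsp-3 (2.20-fold), and no gene of the group was lower by the test. Calls are at an adjusted p under 0.05 in limma, fitted and adjusted over all 26192 probe sets. The 3 higher calls make up 7.89% of the group, where 1.06% of all probe sets were called higher and 2.60% lower. Before adjustment, at p under 0.05, 8 of the 38 (21.1%) were higher and 0 lower, against 10.1% higher and 12.4% lower over all probe sets. The exposed arrays lay wholly above the controls for 11 genes (28.9%, against 14.6% of all probe sets) and wholly below them for 2 (5.26%, against 13.5%). The other 25 overlapped between groups. The median log2 change of the 38 genes was 0.17, where that of all probe sets was 0.05. Of the 38 changes 29 were positive, where 14482 of all 26192 were.

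**Figure D1:**
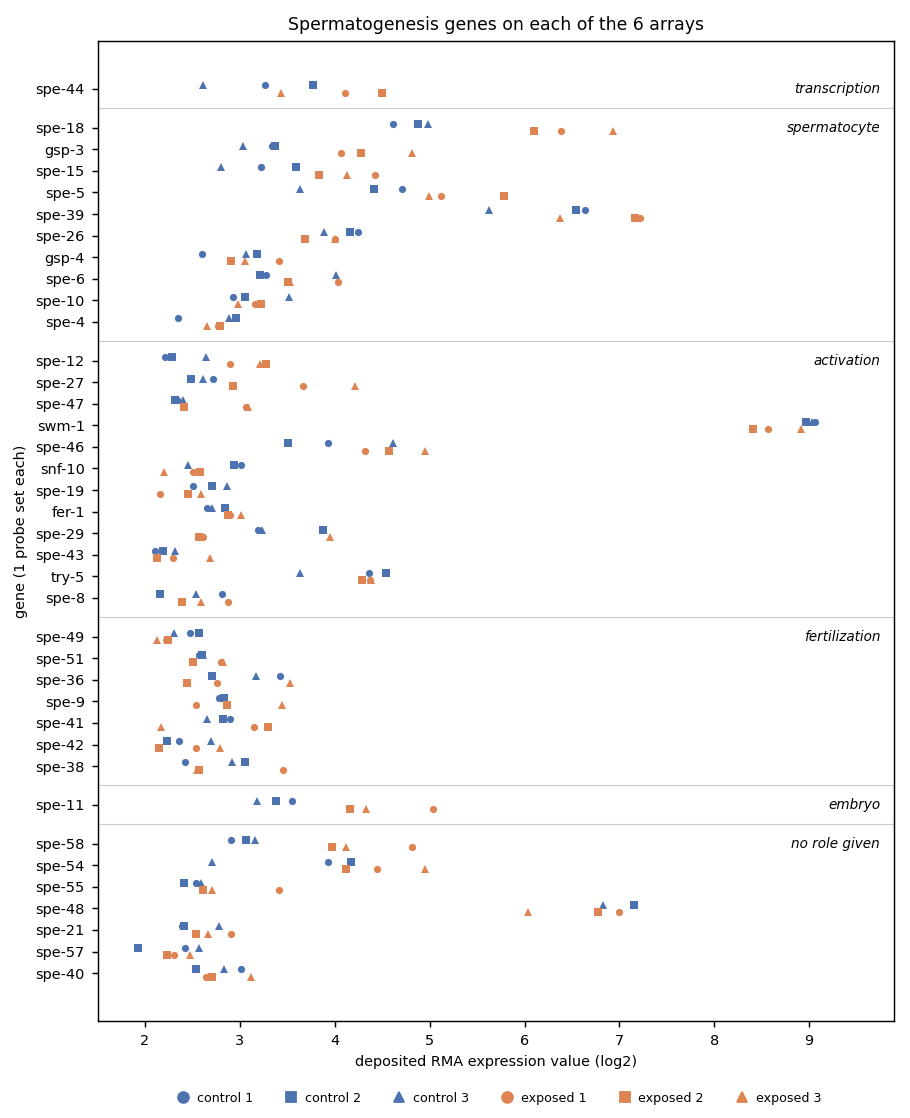
Deposited log2 expression value of each of the 38 genes (rows, grouped by step) on the 3 control (blue) and 3 exposed (orange) arrays, with 1 symbol shape per replicate number. The groups stand clearest apart in spe-18, where controls lie at 4.61 to 4.98 and exposed arrays at 6.10 to 6.93. The fertilization genes lie between 2.12 and 3.53 on every array.

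The number of calls depended on the settings and on single arrays. All 3 calls were lost without control 1, without control 2 and without exposed 1, where 0 of the 38 genes passed in limma. There 8, 10 and 8 were higher before adjustment (p under 0.05). Of all probe sets, 0.252%, 0.202% and 0.187% were called in these 3 settings, against 3.66% as reported. The gene spe-18 alone was called with an intensity trend in the variance, with all deposited probe sets tested, with controls 2 and 3 averaged, without exposed 3, and without both arrays numbered 3. With array weights 5 of the 38 genes were called, or 13.2%, but so were 13.3% of all probe sets.

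Of the regulators of sperm genes, spe-44 encodes a DNA-binding protein that turns on a large set of sperm genes in spermatocytes. It read 3.26, 3.77 and 2.61 on control arrays 1, 2 and 3 and 4.11, 4.50 and 3.43 on exposed arrays 1, 2 and 3 (log2, in this order of arrays here and below). Exposed 3 lay below control 2, so the groups overlapped. Both arrays numbered 3 were the lowest of their group. The log2 change was 0.80 with a 95% interval of -0.07 to 1.67 (limma, adjusted p = 0.257), an interval that includes 0.

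The spermatocyte genes held 2 of the 3 calls. Of 10 measured, 2 were called higher (20.0%, against 1.06% of all probe sets) and 8 did not pass, with a median log2 change of 0.42. The exposed arrays lay wholly above the controls for 4 of the 10 (40.0%, against 14.6%). The gene spe-18 encodes a protein needed to assemble MSP into fibrous bodies. It read 4.61, 4.88 and 4.98 in controls 1 to 3 and 6.39, 6.10 and 6.93 in exposed 1 to 3. The lowest exposed array was thus well above the highest control. The change from 4.82 ± 0.19 to 6.48 ± 0.42 (SD, n = 3) had an adjusted p of 0.0223 in limma, with a 95% interval of 1.06 to 2.24 for the log2 change. The call was lost without control 1, control 2 or exposed 1 (adjusted p of 0.0946, 0.0881 and 0.0851), where the log2 change was 1.54, 1.68 and 1.69. It held under the other 13 alternative settings.

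The genes gsp-3 and gsp-4 encode close paralogs of protein phosphatase 1 that act in sperm meiosis and in the motility of the finished sperm. The probe set of gsp-3 read 3.34, 3.37 and 3.03 on the control arrays and 4.07, 4.28 and 4.81 on the exposed arrays. All 3 exposed arrays were above all controls, and the change of 1.14 ± 0.24 (log2, SE) just passed, with an adjusted p of 0.0497. It passed under 4 of 16 alternatives and was lost in each of the 6 that leave out 1 array, with adjusted p up to 0.14. The gsp-4 probe set read 2.60, 3.18 and 3.06 on the control arrays and 3.41, 2.91 and 3.05 on the exposed arrays, and its groups overlapped (log2 change 0.18, 95% interval -0.37 to 0.72, adjusted p = 0.694). Probes of near-identical paralogs may read RNA of both genes, so the single values are uncertain, and the difference between the paralogs was not tested.

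Of the organelle genes in the spermatocyte group, spe-15 and spe-5 had groups that did not overlap but did not pass. The gene spe-15 encodes a myosin of class VI that helps sort organelles as spermatids bud off. It read 3.22, 3.59 and 2.80 on the control arrays and 4.42, 3.83 and 4.13 on the exposed arrays (log2 change 0.92, adjusted p = 0.0982). The gene spe-5 encodes a B subunit of the vacuolar proton pump, which acidifies the membranous organelles. It read 4.71, 4.41 and 3.63 on the control arrays and 5.12, 5.78 and 4.99 on the exposed arrays (log2 change 1.04, adjusted p = 0.129). In both genes control 3 was the lowest of the 6 arrays.

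The remaining spermatocyte genes overlapped between groups. The trafficking gene spe-39, which also works outside sperm, read 6.64, 6.54 and 5.63 on the control arrays and 7.22, 7.17 and 6.37 on the exposed arrays, again with both arrays numbered 3 lowest (log2 change 0.65, adjusted p = 0.324). The kelch-protein gene spe-26, the casein kinase gene spe-6, the palmitoyltransferase gene spe-10 and the presenilin gene spe-4 had log2 changes of -0.20, 0.19, -0.05 and 0.00. Their 95% intervals together ran from -0.64 to 0.84. On the deposited scale the intervals of these 4 genes lay within a 2-fold change in either direction. With equal array medians the log2 change of spe-6 was 0.40. The control means of spe-4 and spe-10 were low, at 2.73 and 3.16, and RMA compresses differences at low values. A 2-fold change in RNA is thus not excluded. The signs of the changes of spe-4, spe-10 and spe-26 turned with the scaling of the arrays.

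Activation genes gave no call. Of 12 measured, 4 had exposed arrays wholly above the controls (33.3%, against 14.6% of all probe sets). In 1 they lay wholly below (8.33%, against 13.5%). The median log2 change was 0.17, and 5 of the 12 were dim. The genes spe-8, spe-12, spe-19, spe-27, spe-29 and spe-43 act together in a pathway that activates the hermaphrodite's own sperm, and their log2 changes ran from -0.39 to 0.99. The membrane protein gene spe-12 read 2.21, 2.28 and 2.64 on the control arrays and 2.89, 3.27 and 3.21 on the exposed arrays (log2 change 0.75, adjusted p = 0.0899). The gene spe-27 read 2.72, 2.48 and 2.61 on the control arrays and 3.66, 2.93 and 4.21 on the exposed arrays (log2 change 0.99, adjusted p = 0.128). In both genes the exposed arrays were all higher, but in spe-27 they differed among themselves by more than 1 log2 unit. Without exposed 2, the lowest of them, spe-27 passed (log2 change 1.33, adjusted p = 0.047), and with array weights spe-12 did (adjusted p = 0.0259).

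The other members of this pathway had log2 changes of 0.11 in the tyrosine kinase gene spe-8, 0.16 in spe-43, -0.29 in spe-19 and -0.39 in spe-29. The groups overlapped in all 4, and the probe sets of spe-8, spe-43 and spe-19 were dim. The exposed arrays of spe-29 lay far apart, at 2.61, 2.57 and 3.95, around controls of 3.19, 3.88 and 3.23. Among genes that hold activation back or act on its timing, the dim spe-47 probe set read 2.34, 2.32 and 2.40 on the control arrays and 3.06, 2.41 and 3.08 on the exposed arrays, so exposed 2 lay next to the controls (log2 change 0.49, adjusted p = 0.25). The gene spe-46 had a log2 change of 0.60 with overlapping groups (adjusted p = 0.314). The ferlin gene fer-1, needed when membranous organelles fuse with the sperm surface, read 2.65 to 2.84 in controls and 2.87 to 3.01 in exposed worms, a gap between the groups of a few hundredths (log2 change 0.19, adjusted p = 0.544).

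The male activation route uses the seminal fluid protease gene try-5, the transporter gene snf-10, through which sperm respond to the protease signal, and the secreted protease inhibitor gene swm-1, which keeps sperm inactive in the male. None of the 3 was called. The swm-1 probe set read 9.06, 8.97 and 9.03 in controls, a spread under 0.1, and 8.57, 8.41 and 8.92 in exposed worms. Every exposed array was below every control, by 0.05 or more, and the log2 change was -0.39 with a 95% interval of -0.84 to 0.07 (adjusted p = 0.292). It stayed negative under all 16 alternatives. The try-5 probe set read 4.36, 4.54 and 3.63 on the control arrays and 4.37, 4.29 and 4.38 on the exposed arrays, with control 3 low and the other 5 arrays close together (log2 change 0.17, adjusted p = 0.741, and -0.12 without both arrays numbered 3). The dim snf-10 probe set read 3.01, 2.94 and 2.45 on the control arrays and 2.51, 2.58 and 2.20 on the exposed arrays (log2 change -0.37, adjusted p = 0.371).

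Genes of the male tail, head and seminal tract, the cells that a hermaphrodite sample should lack, were at the low end of the scale. All 9 probe sets of this list, among them cwp-1, cwp-2 and cwp-4, read between 2.03 and 3.35 in controls and between 2.20 and 3.56 in exposed worms. None was called, none had groups apart, and the list means were 2.50 to 2.76 in controls and 2.68 to 2.76 in exposed arrays.

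Fertilization genes showed no separation upward. Of 7 measured, 0 were called in limma and 0 had p under 0.05 before adjustment, and their log2 changes ran from -0.26 to 0.13 with a median of 0.06. Their products sit on or are secreted onto the sperm: spe-9 encodes a transmembrane protein with EGF repeats, spe-36 and spe-51 encode secreted proteins, spe-38, spe-42 and spe-49 encode membrane proteins, and spe-41 (trp-3) encodes a TRPC channel. The spe-9 probe set read 2.78, 2.83 and 2.83 on the control arrays and 2.54, 2.86 and 3.44 on the exposed arrays. Controls were nearly equal while the exposed arrays fell on both sides of them (log2 change 0.13, 95% interval -0.45 to 0.72, adjusted p = 0.794). The dim spe-49 probe set was the one gene here with groups apart, at 2.47, 2.57 and 2.30 on the control arrays and 2.22, 2.24 and 2.12 on the exposed arrays (log2 change -0.26, adjusted p = 0.421).

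The remaining fertilization genes had overlapping groups. The spe-51 probe set read 2.57 to 2.61 in controls and 2.50 to 2.82 in exposed worms (adjusted p = 0.743), and the spe-36 probe set read 2.70 to 3.42 and 2.44 to 3.53 (adjusted p = 0.776). The channel gene spe-41 read 2.89, 2.82 and 2.65 on the control arrays and 3.15, 3.30 and 2.17 on the exposed arrays, with exposed 3 under every control (log2 change 0.09, adjusted p = 0.893). The probe sets of spe-38 and spe-42 both had log2 changes of 0.06. All 7 genes had control means below the median of all probe sets and 3 of the 7 were dim. All 7 read between 2.12 and 3.53, within the range of the male list above (2.03 to 3.56). A hermaphrodite sample should lack the cells of that list. The values of the 7 may thus lie at the background of the array, where a change could be missed.

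The paternal factor spe-11 is carried by sperm into the egg, where the embryo needs it to start development. It read 3.55, 3.38 and 3.18 on the control arrays and 5.03, 4.16 and 4.33 on the exposed arrays, each exposed array above each control. The change from 3.37 ± 0.19 to 4.51 ± 0.46 (SD, n = 3; 2.20-fold) missed the threshold (limma, adjusted p = 0.0619). Its size was that of gsp-3, with a slightly larger standard error (0.26 against 0.24). It passed with equal array medians, a second quantile normalization and array weights (adjusted p of 0.0476, 0.0468 and 0.0252).

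The 7 genes for which no role is given here held the third call. The gene spe-58 read 2.91, 3.06 and 3.16 on the control arrays and 4.81, 3.97 and 4.12 on the exposed arrays, with no overlap and exposed 1 highest. The change from 3.05 ± 0.13 to 4.30 ± 0.45 (SD, n = 3) had an adjusted p of 0.0449, and its 95% interval was 0.66 to 1.85 on the log2 scale. It passed under 6 of 16 alternatives, of which 1 left out an array (without control 3). The gene spe-54 read 3.93, 4.17 and 2.71 on the control arrays and 4.44, 4.12 and 4.95 on the exposed arrays, with control 3 far below the rest (log2 change 0.89, adjusted p = 0.248). Without both arrays numbered 3 its change was 0.23.

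The gene spe-55 read 2.54, 2.41 and 2.59 on the control arrays and 3.41, 2.61 and 2.71 on the exposed arrays, so that exposed 1 alone stood clear of the controls (log2 change 0.40, adjusted p = 0.386). The gene spe-48 read 7.15, 7.15 and 6.83 on the control arrays and 7.0, 6.78 and 6.04 on the exposed arrays, with exposed 3 lowest (log2 change -0.43, adjusted p = 0.401). This was the most negative change of the 38. The genes spe-21, spe-57 and spe-40 had changes of 0.17, 0.03 and 0.03.

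**Figure D2:**
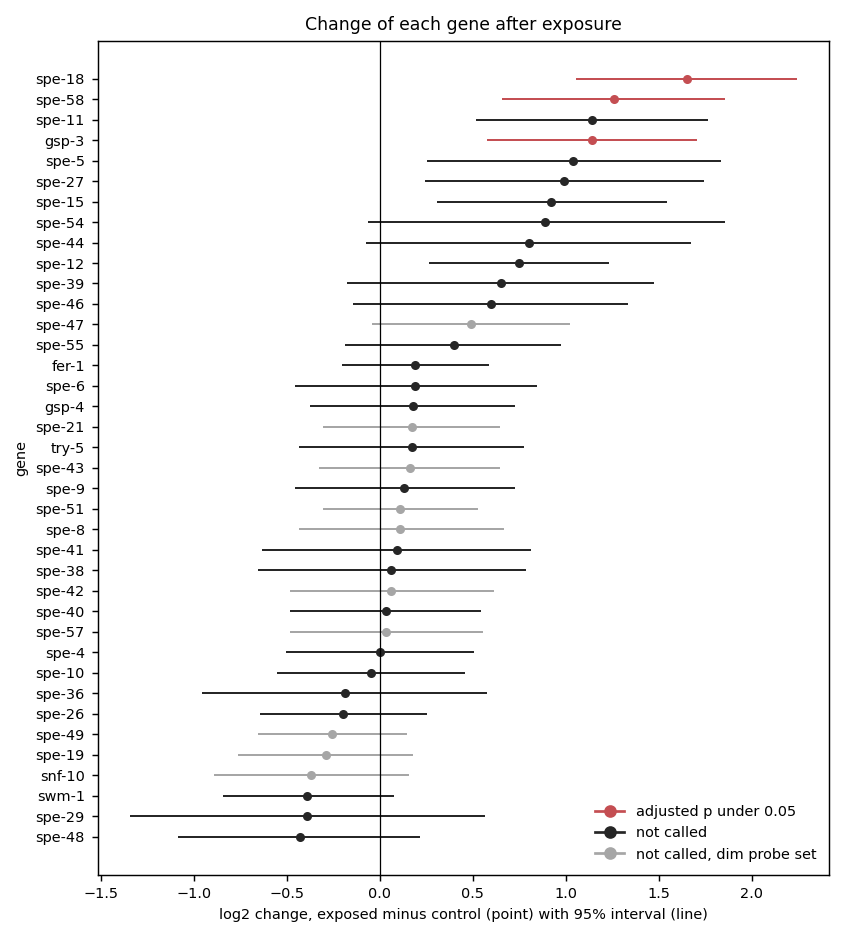
Log2 change (exposed minus control) of each of the 38 genes with its 95% interval from limma, ordered by size. The 3 called genes (red) are spe-18 at 1.65, spe-58 at 1.26 and gsp-3 at 1.14, and dim probe sets (grey) lie between -0.37 and 0.49.

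Across arrays, exposed 2 tended to hold the lowest exposed value. It was the lowest of the 3 exposed arrays in 22 of the 38 genes and in 8 of the 11 genes whose exposed arrays lay wholly above the controls. The mean over the 38 genes was 3.39, 3.41 and 3.34 on the control arrays and 3.76, 3.57 and 3.75 on the exposed arrays, so that exposed 2 lay nearest the controls. Among controls no array stood out in this count, since control 1, 2 and 3 were lowest in 14, 11 and 13 genes. The MSP probe sets shared the low exposed 2, which was the lowest exposed array in 31 of 34. They differed in the controls, where control 3 was the highest in 29 of 34.

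Sperm genes outside the group are set beside these values, along with small peptide families that were taken by symbol alone. Of 34 probe sets with an MSP gene, 30 of which carry several genes, 7 were called higher (20.6%, against 1.06% of all probe sets) and 0 lower. Their median log2 change was 2.05. Before adjustment (p under 0.05 in limma), 30 were higher (88.2%, against 10.1% of all probe sets). Of 10 probe sets of the nspd family, small peptides expressed in sperm, 5 were called higher (50.0%) and 8 were higher before adjustment (80.0%), with a median of 2.52. The nspa and ssp families had medians of 1.28 and 1.13 with 1 call each, of 10 and 13 probe sets. The nspc family, of 18 probe sets, had 0 calls in limma, 0 probe sets with p under 0.05 before adjustment and a median of -0.14. Its means were 9.10 to 9.50 on the control arrays, against 3.89 to 5.01 in the nspd family. Whether nspc genes are expressed in sperm was not tested. No test compared these medians with the 0.17 of the 38 genes, and these families rest on near-identical copies.

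Of 7 other sperm factors, htas-1, which encodes a histone H2A variant of sperm, was called (from 3.59 ± 0.62 to 5.80 ± 0.59, SD, n = 3; 4.64-fold higher, adjusted p = 0.0329), and the other 6 were not. Among those, cylc-2 and the sperm chromatin gene smz-1 had log2 changes of 1.57 and 1.19 (adjusted p = 0.054 and 0.0836). The other changes were 0.81 in zipt-7.1, 0.54 in wee-1.3, 0.40 in the dim smz-2 probe set and 0.02 in mpk-1. Of these, mpk-1 and wee-1.3 work in other cells too. The median change of 13 genes of sex determination and sperm fate was 0.31, and 0 were called in limma. Before adjustment (p under 0.05), 2 were higher (15.4%, against 10.1% of all probe sets). These were fem-2, needed for male fate, and elt-1, a GATA factor (log2 changes 0.70 and 0.56, adjusted p = 0.0698 and 0.112). The sperm fate gene fog-1 was at 4.04, 3.70 and 3.32 on the control arrays and 4.57, 4.55 and 3.84 on the exposed arrays, with overlap and with both arrays numbered 3 lowest, as in spe-44 and spe-39.

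Lists of oocyte and germline genes had positive medians without calls. Of 18 oocyte and eggshell genes and 13 germline and meiosis genes 0 were called in limma, and the medians were 0.83 and 0.58. Before adjustment (p under 0.05), 9 and 7 were higher (50.0% and 53.8%, against 10.1% of all probe sets). The exposed arrays lay wholly above the controls for 4 and 7 genes (22.2% and 53.8%, against 14.6% of all probe sets). The oocyte list means were 8.20, 7.98 and 7.29 on the control arrays and 8.81, 8.79 and 8.12 on the exposed ones, so both arrays numbered 3 were the lowest of their group and exposed 3 lay below control 1. The same 2 arrays were lowest in spe-44, spe-39 and spe-5, while spe-18, spe-58 and spe-12 had control 3 as their highest control. The part of germline content in the values of these genes was not tested. Early embryo genes had a median of 0.51 and genes of the spermatheca and gonad sheath, where sperm are stored and oocytes are wrapped, one of -0.28. There were 0 calls in these 11 and 6 genes. Before adjustment, 4 and 0 of them were higher and 1 and 2 lower, where 10.1% of all probe sets were higher and 12.4% lower.

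**Figure D3:**
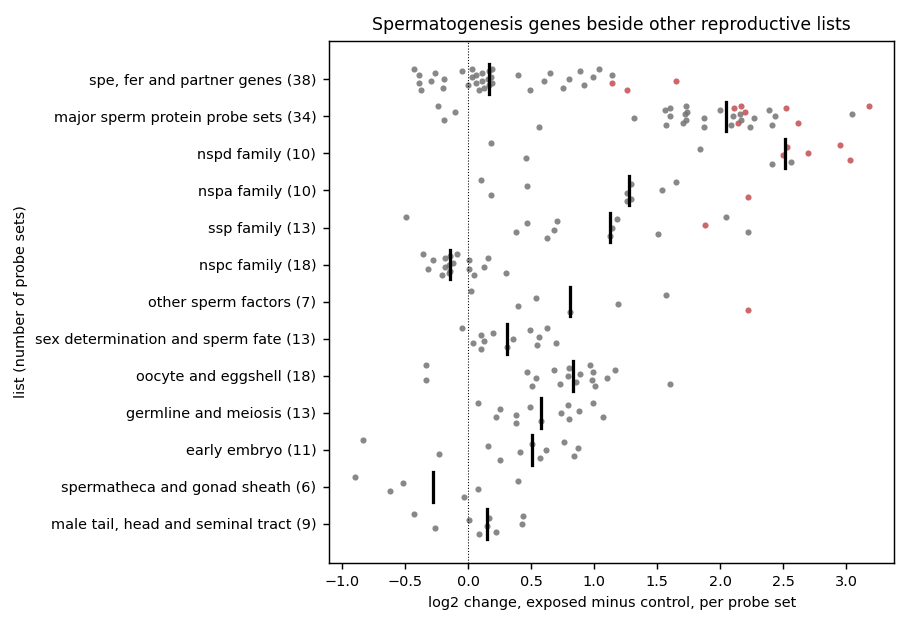
Log2 change (exposed minus control) of every probe set of the 38 spe, fer and partner genes and of 12 other lists. Called probe sets are in red and the median of each list is a black bar. The 38 genes have a median of 0.17, the MSP probe sets one of 2.05 and the nspd family one of 2.52.

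By position, the 38 genes were unevenly spread over the chromosomes of RefSeq assembly WBcel235. Chromosome I holds 16 of them (42.1%) and 12.8% of all tested probe sets matched to RefSeq, and chromosome X holds 0 of them and 19.3% of all matched. Chromosomes II, III, IV and V hold 2, 3, 9 and 8. The worm X chromosome is known to be poor in sperm genes. Of the called genes gsp-3 and spe-58 lie on chromosome I and spe-18 on II. The 11 genes with exposed arrays wholly above controls were 8 of the 16 on I, 1 of the 2 on II and 2 of the 9 on IV. The share over all probe sets of each chromosome was not computed, so these counts show no difference between chromosomes.

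**Figure D4:**
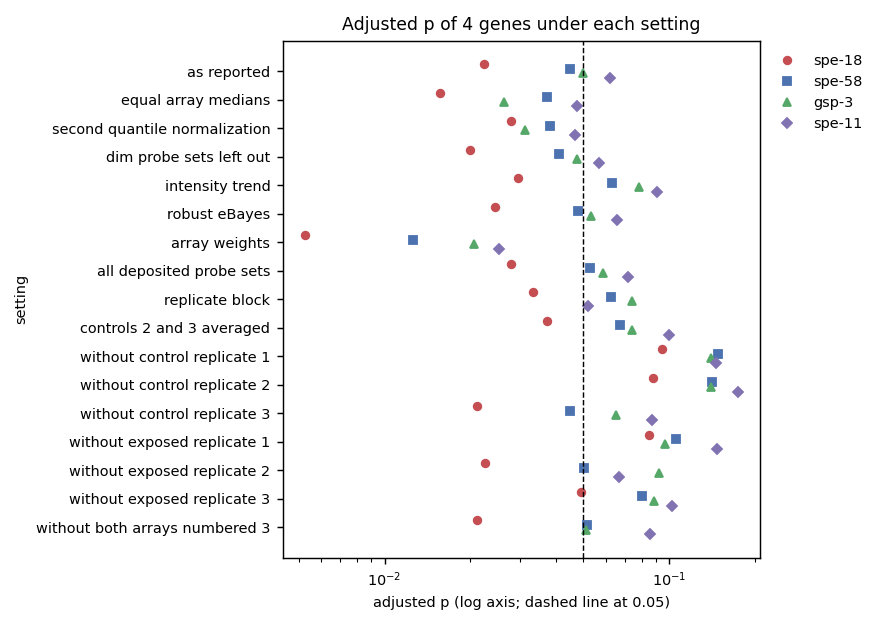
Adjusted p (log axis) of spe-18, spe-58, gsp-3 and spe-11 as reported and under 16 alternative settings, with a dashed line at 0.05. The gene spe-18 lies right of the line without control 1, control 2 or exposed 1, and spe-11 lies left of it under 3 settings.

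The sign of the change was the same in 26 of the 38 genes under every alternative that tested them, which were 16, or 15 for the 10 dim genes that the filter on dim probe sets removes. The 12 whose sign turned had changes between -0.20 and 0.17 as reported and none was called. The 3 called genes and spe-11, spe-5, spe-15, spe-27 and spe-12 had positive changes under all 16 alternatives.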

How the data were processed

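Total RNA was amplified (NuGEN Ovation Pico WTA V2), labelled with biotin and read on 6 one-colour Affymetrix arrays, 3 per group, per the labels' protocols. For the deposited log2 values the authors used Affymetrix Expression Console and RMA, per the submitters' processing notes. No version or genome build is given in the sources used here. The log2 scale follows from the values (1.14 to 13.96). The number of arrays limits the precision, and neither scanner files nor detection calls were used here.

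Of 29317 probe sets, 26192 carry a gene and were tested as deposited with limma 3.58.1 (R 4.3.3, lmFit and eBayes without trend), two-sided, with Benjamini-Hochberg adjustment over all 26192 and a threshold of 0.05. An exact permutation test of 3 against 3 arrays cannot give a p under 0.1 and was not used. All 38 genes matched RefSeq, with 0 changed symbols. The procedure was checked on simulated data, where most 2-fold changes were missed, so a gene that was not called may still have changed. Intervals cover 95% and are not adjusted.

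Named are called members, the 4 smallest p of each step and spe-11, spe-44, gsp-3, gsp-4, spe-41, snf-10, swm-1 and try-5 (22 in all). Other members were named after their values were seen. For other lists up to 3 genes with the smallest p could be named. The genes zipt-7.1, wee-1.3, smz-2 and mpk-1 were named outside this rule, after their values were seen. Members, lists and tests were chosen with earlier results of these data known. One control sample is number 3 in its title and 2 in its source label, and the title was followed. The replicate numbers were not taken as pairs, since the labels do not say that they pair samples. Deviations from the group means correlated at 0.14, 0.08 and 0.25 between same-numbered arrays 1, 2 and 3. Between control and exposed arrays of unlike number they correlated at -0.23 to 0.19, so the arrays numbered 3 had the highest value. Alternatives were other scalings, variance models, array weights, a filter on dim probe sets, a replicate block, averaged controls and leaving out arrays.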

Additional observations from a re-analysis of the deposited data

How the results depend on the processing

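With 3 arrays per group, each call was lost without control 1, without control 2 and without exposed 1. Calls over all probe sets fell there too, as given below. No setting here uses raw intensities. The count of called genes among the 38 was 3 as reported, 1 with an intensity trend, with all deposited probe sets, with controls 2 and 3 averaged and without both arrays numbered 3 (chosen after seeing the data), and 5 with array weights. With the replicate block it was also 1 (spe-18), and the block moved the total from 959 to 978. In limma with the block, 11 of the 38 genes were higher before adjustment (p under 0.05), against 8 without it. The adjusted p fell from 0.257 to 0.0623 in spe-44 and from 0.324 to 0.0885 in spe-39. It rose in the 3 called genes, to 0.0332 in spe-18, 0.0625 in spe-58 and 0.0741 in gsp-3. Deviations from the group means correlated at 0.19 between control 2 and exposed 1 and at 0.08 between control 2 and exposed 2. The numbers are not known to pair samples. Leaving out 1 array gave 0 to 2 calls among the 38 and 49 to 1996 over all probe sets (66 without control 1, 53 without control 2, 1996 without control 3, 49 without exposed 1, 818 without exposed 2, 289 without exposed 3). Array weights gave 3473 calls and leaving out both arrays numbered 3 gave 2317. The cause was not tested. The median change of the 38 genes was 0.17 as reported, 0.10 to 0.23 when 1 array was left out, 0.13 after a second quantile normalization and 0.37 with equal array medians, where the median of all probe sets rose from 0.05 to 0.26 and higher calls made up 60.1% of all calls instead of 29% (41.5% after the quantile normalization). In the 38 genes all calls were higher under every setting.

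Of the 38 genes, 26 kept their sign under every alternative that tested them (16, or 15 for the 10 dim genes, which the filter on dim probe sets removes). None of the other 12 was called. With equal array medians the change turned to 0.02 in spe-36, 0.01 in spe-26 and 0.16 in spe-10. A second quantile normalization gave -0.02 in spe-4, -0.04 in spe-57, -0.01 in spe-42, 0.03 in spe-26 and 0.01 in spe-10. Array weights gave -0.01 in spe-9, -0.07 in spe-40, -0.02 in try-5 and 0.12 in spe-10. Averaged controls gave -0.02 in spe-40 and 0.01 in spe-10. Without both arrays numbered 3 it was -0.11 in spe-9, -0.10 in spe-40, -0.12 in try-5 and 0.20 in spe-10. Leaving out 1 array gave ranges of -0.06 to 0.26 in spe-8, -0.19 to 0.12 in spe-4, -0.11 to 0.34 in spe-9, -0.24 to 0.21 in spe-38, -0.16 to 0.16 in spe-57, -0.12 to 0.44 in spe-41, -0.50 to 0.05 in spe-36, -0.12 to 0.14 in spe-40, -0.16 to 0.13 in spe-10, -0.10 to 0.35 in try-5 and -0.09 to 0.24 in spe-42.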
